A study of Mus musculus with 6 samples.

Results

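The genes that encode the proteins of the cytosolic ribosome were compared between young and old mouse hearts. They were chosen by gene name, as rows of the deposited count table named Rpl or Rps followed by a digit, or Rplp0, Rplp1, Rplp2 or Rpsa. Pseudogene rows (names with -ps), the Rps6k kinases and Rpl3, Rpl3l, Rpl7, Rpl7l1, Rpl22 and Rpl22l1 were left out. This gave 86 of the 44200 rows of the table, 39 with names of the small (40S) subunit and 47 with names of the large (60S) subunit. In the GENCODE M21 annotation 80 of them were protein coding and 6 were pseudogenes under another kind of name (Rps4l, Rpl37rt, Rps12l1, Rps12l2, Rps3a2 and Rps3a3). One name is no ribosomal protein: Rps19bp1 encodes a regulator of the deacetylase SIRT1.

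RNA was sequenced from whole hearts of male C57BL/6 mice aged 2 months (young) or 22 months (old), with 3 hearts per age that the labels give as independent biological replicates. All mice were on normal chow, and no transgene or treatment is labelled. The extraction text in the labels names NRVMs, another sample type, while the tissue is labelled heart. In RNA of whole tissue, fewer cells of a type and less RNA per cell cannot be told apart.

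The cytosolic ribosome carries a small subunit that decodes the mRNA and a large subunit that joins amino acids, and each protein is normally present in 1 copy per ribosome, apart from the acidic stalk proteins Rplp1 and Rplp2. Their mRNAs are among the most abundant of a cell. Most of them start with a C followed by a run of C and T, the terminal oligopyrimidine (TOP) motif, through which the kinase mTOR and the RNA-binding protein Larp1 control their translation together.

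The starts of a few members are shown because this motif is the sequence they share, and because a retrogene copy shares it with its parent. Each line gives 10 bases before and 20 bases from the start of transcription in RefSeq (GRCm38.p6), 5′ to 3′ on the gene's strand, and capitals mark the run of C and T that opens with C at the start.
Rps6: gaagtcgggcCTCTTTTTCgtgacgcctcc
Rps21: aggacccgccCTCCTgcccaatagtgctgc
Rpl38: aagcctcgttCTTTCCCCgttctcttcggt
Rpl15: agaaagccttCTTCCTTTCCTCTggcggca
Rps27: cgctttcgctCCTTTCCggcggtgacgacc
Rps27rt: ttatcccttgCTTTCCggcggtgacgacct
These windows are Rps6 chr4:86857348-86857377 (minus strand), Rps21 chr2:180257369-180257398 (plus strand), Rpl38 chr11:114668570-114668599 (plus strand), Rpl15 chr14:18270967-18270996 (minus strand), Rps27 chr3:90213629-90213658 (minus strand) and Rps27rt chr9:114982720-114982749 (minus strand). Rps27rt is an intronless copy of Rps27 on another chromosome, and the longest run of letters the windows of this pair have in common is 19 bases. A RefSeq promoter entry was found for 63 of the 86 members. Which base RNA starts from in these hearts was not measured. A C followed by at least 4 C or T stood exactly at the start in 14 of the 63 (22.2%), against 3.01% of all 27025 genes with an entry and 2.67% of 17492 protein-coding genes. Within 10 bases of the start it stood in 58.7% of members and 34.4% of all genes. In the 300 bases from 250 before to 50 after the start, on either strand, the Ets-type motif CCGGAAG was found in 41.3% of members and 9.93% of all genes, and the GC box GGGCGG in 61.9% and 38.2%. The YY1-type motif AAGATGG was found in 12.7% and 7.28%, the E-box CACGTG in 9.52% and 8.09%, and the TATA motif TATAAA in 7.94% and 15.7%. Of protein-coding genes with an entry, 12.9% held the Ets-type motif and 49.2% the GC box. The YY1-type motif, E-box and TATA motif were found in 7.18, 8.91 and 14.8% of them. These are matches of letters in a window and not sites of binding.

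Ribosomal protein mRNAs were higher in old hearts across both subunits. Of the 83 members with enough counts to test, 44 rose, none fell and 39 did not pass the test (edgeR's quasi-likelihood test, Benjamini-Hochberg adjusted p under 0.05 over all 14413 genes tested). Over all genes tested, 8.72% were called higher and 6.36% lower. Before adjustment, 66 members were higher and 2 lower at p under 0.05 (edgeR). At an adjusted p under 0.05, DESeq2 called 57 members higher and 1 lower, beside 10.7 and 8.04% of all genes tested. Limma-voom called 38 and 0 at the same threshold, beside 7.6 and 6.38% of all genes. All 3 old libraries lay above all 3 young ones for 65 members, which is the case for 18.8% of all genes tested. They lay below for 2 members, Rpl7a and Rpl15, against 18.4% of all genes. The median log2 fold change of old over young was 0.54 among members, with the middle 50% of genes between 0.45 and 0.74, beside 0.02 over all genes tested. In 60 members the log2 fold change lay between 0.4 and 0.9, and only Rpl21 and Rps27a were above 1.

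Both subunits had like counts and medians, and the difference between them was not tested. Among 40S members 22 of 38 rose, with a median log2 fold change of 0.58. Among 60S members 22 of 45 rose, with a median of 0.54. The share of all counted reads on the 86 members was 1.86, 1.87 and 1.86% in the young libraries and 2.65, 3.37 and 2.57% in the old ones. The young libraries were nearly equal, every old library was above them, and old 2 was the highest. Without the mitochondrially encoded genes, which took 18.3 to 27.5% of the counts of a library, the shares were 2.50, 2.55 and 2.49% in young and 3.36, 4.13 and 3.54% in old hearts.

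**Figure D1:**
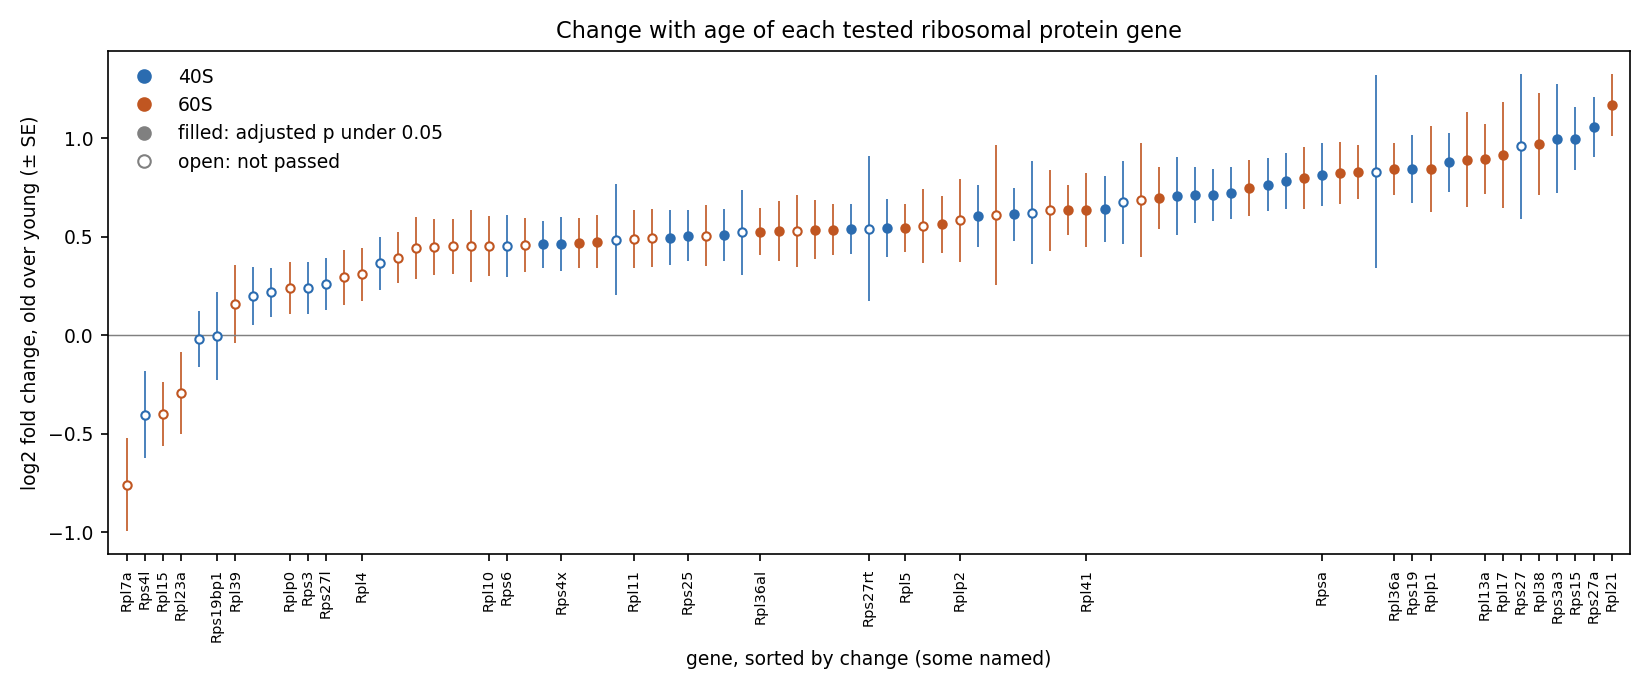
Log2 fold change of old over young with its standard error (vertical axis) for each of the 83 tested members, sorted along the horizontal axis with some genes named, in blue for the 40S and in orange for the 60S subunit. The 44 filled points passed the test and all lie above 0, while the lowest 4 genes, Rpl7a, Rps4l, Rpl15 and Rpl23a, are open points below 0.

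The 3 old hearts were less alike than the 3 young hearts. Set against the mean of the young libraries, the median member stood at 0.39 in old 1, 0.77 in old 2 and 0.48 in old 3 on the log2 scale, while the young libraries stood at 0.02, 0.01 and −0.03. Of the 83 tested members 70 were above all young libraries in old 1, 78 in old 2 and 74 in old 3, where 37.2, 40.2 and 39.7% of all genes tested were. The highest old value of a member was in old 2 for 62 genes, in old 1 for 19 and in old 3 for 2. The 62 genes had a median GC content of 53% in their longest coding transcript and the 19 genes one of 48.4%. Whether base composition has a part in the order of the old libraries was not tested. The median SD of log2 values within a group was 0.05 in young and 0.24 in old hearts for 80 members with a mean of at least 10 CPM (counts scaled to library size), beside 0.14 and 0.27 for all genes tested.

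The count of 44 depended on single libraries. It was 6, 5 and 7 without young 1, young 2 or young 3, 65 without old 1, 23 without old 2 and 25 without old 3. Calls over all genes moved too, to 2.39, 2.36 and 2.66% higher without one of the young libraries to 20.1% without old 1, and to 6.35 and 4.06% without old 2 or old 3. The median log2 fold change of members moved less, from 0.43 without old 2 to 0.62 without old 1. Rpl21, Rps27a, Rps15 and Rpl36a kept their call in each of the 6 fits that left out 1 library, and the other 40 lost it in at least 1 of them.

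**Figure D2:**
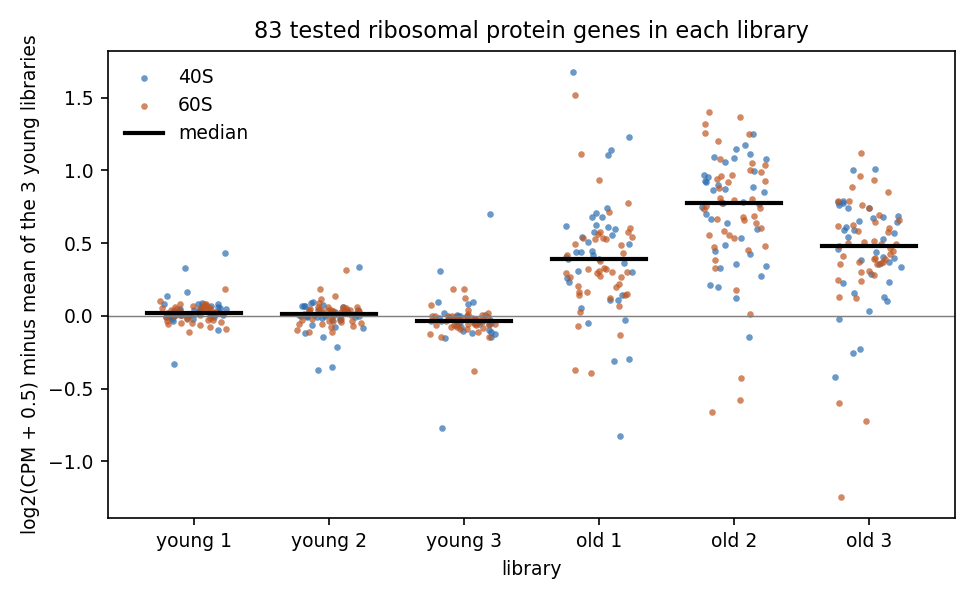
Log2 of CPM + 0.5 minus the mean of the 3 young libraries (vertical axis) for the 83 tested members in each library (horizontal axis), one point per gene, blue for 40S and orange for 60S, with a black bar at the median. The medians are 0.39, 0.77 and 0.48 in the old libraries and between −0.03 and 0.02 in the young ones.

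Among the proteins of the 40S subunit, the largest rise was that of Rps27a, which is made as a fusion of ubiquitin and a ribosomal protein (chr11:29545846-29548109, minus strand). Its level was 115, 118 and 99.6 CPM in young and 260, 240 and 192 CPM in old hearts. Every old heart was well above every young heart, with a log2 fold change of 1.06 ± 0.15 (SE; edgeR adjusted p = 0.00379). Rps15, a protein of the subunit's head near the decoding site (chr10:80292453-80294114, plus strand), stood at 376, 378 and 378 CPM in young and 604, 896 and 761 CPM in old hearts. The young hearts were almost equal and the groups did not overlap (log2 fold change 1.0 ± 0.16, edgeR adjusted p = 0.00571). Rps19, the gene most often mutated in the inherited anaemia Diamond-Blackfan anaemia, stood at 195, 186 and 171 CPM in young and 271, 415 and 307 CPM in old hearts. It rose by a log2 fold change of 0.85 ± 0.17 (edgeR adjusted p = 0.0136) with no overlap.

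Rpsa, a 40S protein also known as a laminin receptor, stood at 515, 491 and 494 CPM in young and 727, 1059 and 857 CPM in old hearts. The groups were apart, and it rose by 0.82 ± 0.16 on the log2 scale (edgeR adjusted p = 0.0115). Rps25, which some viral mRNAs need to start translation, also rose (0.51 ± 0.13, edgeR adjusted p = 0.0302), with 247 to 284 CPM in young and 355 to 401 CPM in old hearts. Rps4x, the X-linked form of Rps4, stood at 341, 345 and 343 CPM in young and 465, 535 and 419 CPM in old hearts. It rose by 0.46 ± 0.14 (edgeR adjusted p = 0.0478).

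Other well-known 40S genes did not pass. Rps6, the substrate of the S6 kinases downstream of mTOR, stood at 285, 290 and 278 CPM in young and 475, 360 and 332 CPM in old hearts. The groups did not overlap, old 1 was the highest, and the log2 fold change was 0.45 ± 0.16 (edgeR adjusted p = 0.0789), and 0.28 without old 1. Rps3, a protein at the mRNA entry channel, had 350 to 369 CPM in young and 383 to 474 CPM in old hearts, with a log2 fold change of 0.24 ± 0.13 (edgeR adjusted p = 0.24), and of 0.15 without old 1. Rps27l, a paralogue of Rps27 induced by p53, had 64.5 to 66.6 CPM in young and 67.0 to 85.9 CPM in old hearts (0.26 ± 0.13, edgeR adjusted p = 0.206). Rps2 had 560 to 620 CPM in young and 488 to 634 CPM in old hearts, which overlap, and a log2 fold change of −0.02 ± 0.14 (edgeR adjusted p = 0.939); its values are given here because they were seen to stand apart from those of the other abundant members.

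Among the proteins of the 60S subunit, Rpl21 had the largest rise of all members (chr5:146832890-146837032, plus strand). It stood at 64.2, 65.9 and 79.2 CPM in young and 151, 184 and 136 CPM in old hearts. All old hearts were far above all young hearts (log2 fold change 1.17 ± 0.16, edgeR adjusted p = 0.00303). Its rank depended on how copies were counted. With the counts of copies added to the gene they copy, as described below, Rpl21 was at 0.97 (edgeR adjusted p = 0.00396). In that setting Rps27a was at 1.04 and Rps15 at 1.0. Rpl38, which is known for its part in the translation of Hox mRNAs in the embryo, stood at 143, 141 and 140 CPM in young and 159, 365 and 308 CPM in old hearts. Old 1 was only a little above the young hearts while old 2 and old 3 were far above them (0.97 ± 0.26, edgeR adjusted p = 0.0348). Rpl13a, which can leave the ribosome to silence inflammatory mRNAs, stood at 491, 509 and 468 CPM in young and 704, 1124 and 902 CPM in old hearts. It rose by 0.90 ± 0.18 on the log2 scale (edgeR adjusted p = 0.012), without overlap.

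Rpl17, a protein at the exit of the peptide tunnel, stood at 48.2, 57.7 and 47.1 CPM in young and 146, 77.3 and 65.0 CPM in old hearts. Old 1 carried much of the difference. The log2 fold change was 0.92 ± 0.27 with an edgeR adjusted p of 0.0495, and 0.48 without old 1. Rpl41, which encodes the smallest ribosomal protein, stood at 411, 441 and 425 CPM in young and 496, 846 and 645 CPM in old hearts. It rose by 0.64 ± 0.19 (edgeR adjusted p = 0.0485), with a value of 0.42 without old 2.

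Rpl5 and Rpl11 bind the 5S ribosomal RNA and, when ribosome assembly is disturbed, the p53 ligase Mdm2. Rpl5 stood at 303, 298 and 274 CPM in young and 443, 423 and 410 CPM in old hearts. It rose by 0.54 ± 0.12 (edgeR adjusted p = 0.0202), with the old hearts close together. Rpl11 had 240 to 257 CPM in young and 309 to 417 CPM in old hearts, did not overlap and missed the threshold (0.49 ± 0.15, edgeR adjusted p = 0.0528). Rpl10, one of the last proteins to join the subunit, had 225 to 249 CPM in young and 288 to 388 CPM in old hearts (0.45 ± 0.15, edgeR adjusted p = 0.0705; 0.30 without old 1). Of the proteins that line the peptide tunnel, Rpl4 had a log2 fold change of 0.31 ± 0.14 (edgeR adjusted p = 0.147), and of 0.20 without old 1. The value of Rpl39 was 0.16 ± 0.20 (edgeR adjusted p = 0.614), with overlapping groups and a range from −0.03 to 0.36 when 1 library was left out.

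The stalk proteins of the 60S subunit recruit the elongation factors, with Rplp0 as the base and Rplp1 and Rplp2 as the arms. Rplp1 stood at 560, 553 and 540 CPM in young and 664, 1312 and 996 CPM in old hearts. It rose by 0.85 ± 0.22 (edgeR adjusted p = 0.0315), with old 2 at the top and no overlap. Rplp2 stood at 230, 239 and 219 CPM in young and 233, 446 and 351 CPM in old hearts, so that old 1 lay within the young range, and it did not pass (0.58 ± 0.21, edgeR adjusted p = 0.0905; 0.35 without old 2). Rplp0 had 748 to 828 CPM in young and 852 to 1021 CPM in old hearts, apart but with a log2 fold change of 0.24 ± 0.13 (edgeR adjusted p = 0.241), and of 0.16 without old 2. Whether Rplp0 and Rplp1 differ in their change was not tested.

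Of 23 members that are genes of Diamond-Blackfan anaemia, 11 rose and none fell, with a median log2 fold change of 0.49. This is close to the 44 of 83 called higher and the median of 0.54 over all tested members. Of all genes tested, 8.72% were called higher. Before adjustment 19 of the 23 were higher and 1 lower at p under 0.05 in edgeR. At an adjusted p under 0.05, DESeq2 called 15 higher and 0 lower, beside 10.7 and 8.04% of all genes tested. The smallest p values among the 23 genes were those of Rps24, Rpl26 and Rpl35a. Rps24 rose from 342 ± 15.2 to 581 ± 61.2 CPM (SD, n = 3), Rpl26 from 274 ± 16.3 to 486 ± 86.9 CPM and Rpl35a from 120 ± 8.49 to 209 ± 37.8 CPM. Their log2 fold changes were 0.77, 0.82 and 0.80, and all young hearts were below all old hearts for each.

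Of the 39 tested members that did not pass, 6 had a log2 fold change below 0, and the 4 lowest are described here. Rpl7a (chr2:26910764-26913318, plus strand) stood at 60.7, 72.6 and 44.5 CPM in young and 44.2, 36.5 and 24.3 CPM in old hearts. The lowest young and the highest old heart nearly touched, and the log2 fold change of −0.76 ± 0.24 did not pass (edgeR adjusted p = 0.0591). It passed with DESeq2 (−0.76, adjusted p = 0.0162). Rpl15 (chr14:18267823-18271391, minus strand), whose start is shown above, stood at 138, 130 and 134 CPM in young and 127, 89.4 and 88.2 CPM in old hearts. Old 1 was just below the young hearts and the other two were clearly below, with a log2 fold change of −0.40 ± 0.16 (edgeR adjusted p = 0.126) and of −0.59 without old 1 (edgeR adjusted p = 0.00139). Rpl23a, which sits at the tunnel exit, had 77.8 to 91.5 CPM in young and 50.8 to 92.9 CPM in old hearts. Its groups overlap at a log2 fold change of −0.29 ± 0.21 (edgeR adjusted p = 0.352), and it was −0.58 without old 1 (edgeR adjusted p = 0.00514) but −0.12 without old 3 (edgeR adjusted p = 0.734). The pseudogene row Rps4l stood at 39.1, 24.3 and 31.5 CPM in young and 17.3, 28.1 and 26.5 CPM in old hearts (−0.40 ± 0.22, edgeR adjusted p = 0.238), and its value was −0.23 without young 1 and −0.22 without old 1.

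Ribosomal protein genes have many near-identical copies in the mouse genome, and no source used here gives the setting by which the authors' counting treated reads that match several places. Values of single members with close copies are therefore uncertain. Rps27 (chr3:90212522-90213651, minus strand) and its retrogene Rps27rt (chr9:114982366-114982739, minus strand) are such close copies: 89.5% of the 100-base windows of Rps27rt transcripts are found in Rps27. Rps27 stood at 65.5, 63.6 and 134 CPM in young and 264, 142 and 106 CPM in old hearts. Rps27rt stood at 118, 110 and 50.9 CPM in young and 70.8, 160 and 175 CPM in old hearts. Among young hearts, young 3 was the highest in Rps27 and the lowest in Rps27rt. Among old hearts the order of the libraries was reversed between the genes, with old 1 the highest in Rps27. Both genes overlapped between ages, and neither passed (0.96 ± 0.37, edgeR adjusted p = 0.107, and 0.54 ± 0.37, edgeR adjusted p = 0.335). Rps27 was at 0.49 without old 1, and Rps27rt at 0.23 without young 3, 0.31 without old 3 and 0.85 without old 1. Whether the assignment of shared reads has a part in these values was not tested.

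Summed, the pair stood at 183, 174 and 185 CPM in young and 335, 302 and 281 CPM in old hearts, with the young hearts close together and no overlap. With the counts of copies added to the gene they copy, a setting chosen after the data were seen, Rps27 had a log2 fold change of 0.76 (edgeR adjusted p = 0.00672). The share of the pair's reads given to Rps27 ran from 35.7 to 72.5% in young and from 37.6 to 78.9% in old hearts. The sum of Rpl37 and Rpl37rt was 198 ± 6.04 CPM in young and 289 ± 77.9 CPM in old hearts (SD, n = 3), and that of Rps3a1, Rps3a2 and Rps3a3 412 ± 5.35 and 601 ± 57.1 CPM. Taken alone, the pseudogene Rps3a3 had 39 to 44 counts in young and 50 to 109 in old hearts, and was called higher (1.0 ± 0.28, edgeR adjusted p = 0.0405).

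Rpl7a has 8 rows named as its pseudogenes in the table. They stood together at 23.7, 23.9 and 29.7 CPM in young and 38.9, 58.4 and 46.3 CPM in old hearts, higher in every old heart, unlike the gene itself. Rpl7a with these rows stood at 84.4, 96.5 and 74.3 CPM in young and 83, 94.9 and 70.6 CPM in old hearts, which overlap throughout, with a log2 fold change of −0.04 (edgeR adjusted p = 0.893). The value of Rpl15 was little altered by its copies, which held few reads (0.80 ± 0.38 CPM in young and 1.21 ± 0.47 CPM in old hearts, SD, n = 3), and its value with them was −0.39 (edgeR adjusted p = 0.134). The log2 fold change of Rpl23a became −0.16 (edgeR adjusted p = 0.579).

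With copies summed, 44 of 78 genes rose, and 42 of these were also among the 44 called by row. Rpl17 (0.39, edgeR adjusted p = 0.0721) and Rps3a3, then part of Rps3a1, were no longer called, while Rps27 and Rpl34 were. Rows with -ps in an Rpl or Rps name numbered 254, including any copies of genes left out of the members. They held 0.079 ± 0.0016% of all young counts and 0.119 ± 0.0106% of all old counts (SD, n = 3). The ratio was 1.5, beside 1.53 for the members' own share. By the share of windows found elsewhere, medians were close while the share of genes called was not, and neither difference was tested. The median log2 fold change was 0.53 in 31 tested members with under 20% of windows found in another gene (19 rose), 0.55 in 27 with 20 to 50% (16 rose) and 0.54 in 20 with 50% or more (8 rose).

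**Figure D3:**
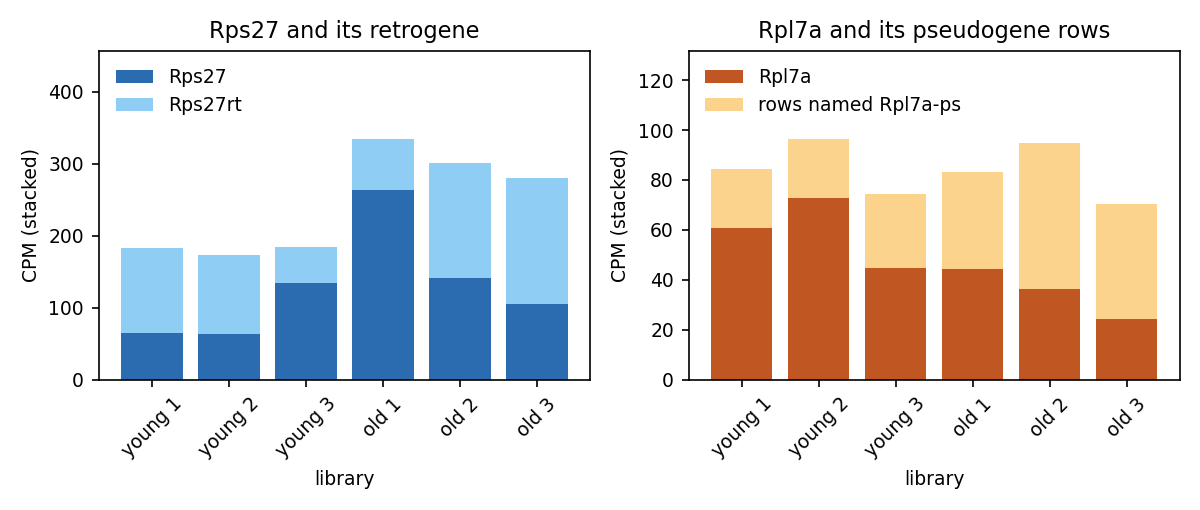
Stacked CPM (vertical axis, from 0) in each library (horizontal axis) of Rps27 with its retrogene Rps27rt on the left, and of Rpl7a with its 8 pseudogene rows on the right. The Rps27 pair sums to 174 to 185 CPM in young and 281 to 335 CPM in old hearts, and Rpl7a with its pseudogene rows to 74.3 to 96.5 and 70.6 to 94.9 CPM.

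Paralogues that make interchangeable proteins rose side by side in one case. Rpl36a, on the X chromosome, stood at 78.3, 72.7 and 75.6 CPM in young and 144, 144 and 119 CPM in old hearts (0.85 ± 0.13, edgeR adjusted p = 0.00514). Rpl36al, its autosomal copy, stood at 64.0, 69.3 and 62.6 CPM in young and 97.6, 91.3 and 93.4 CPM in old hearts (0.53 ± 0.12, edgeR adjusted p = 0.0195). Both were apart between ages. Copies known from the testis were near the floor of detection. Rpl10l had no count in any library, which allows up to 0.0337 CPM over all 6 libraries (3 counts, counting error only). Rpl39l had 2, 0 and 0 counts in young and 5, 2 and 12 in old hearts and was not tested, like Rps12l2. Rpl24 had only 18 to 36 counts per library, although it is a standard 60S protein: it shares exons with Gm28037, which has 0 counts in every library, and no more is read from it. Rps19bp1, the non-ribosomal protein caught by the name, had a log2 fold change of −0.00 ± 0.22 (edgeR adjusted p = 0.997).

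Levels of different genes are compared here only per length, in FPKM (fragments scaled to gene length and depth) as the authors deposited them; no source used here gives the gene lengths behind them. The median over 80 members with a mean of at least 10 CPM was 163 FPKM in young and 245 FPKM in old hearts. Rplp1 was the highest at both ages, with 1068 ± 25.2 FPKM in young and 1917 ± 642 FPKM in old hearts (SD, n = 3). Rpl36 (588 ± 22.1 to 1089 ± 406 FPKM) and Rps15 (575 ± 2.13 to 1145 ± 232 FPKM) followed, and these last 2 did not differ from each other beyond their spread. The order was similar at both ages: the mean log2 FPKM of the 80 genes in young and old hearts had a Pearson r of 0.976 and a Spearman rho of 0.98, across genes that share the same libraries and lengths. The log2 fold change was little related to exon length (r = −0.01, 80 members), GC content (r = 0.14, 77 members) or young FPKM (r = 0.24, 80 members), as a description. Members with the run of C and T at their RefSeq start had a median log2 fold change of 0.64 (7 of 14 tested rose), and those with an entry but no such run 0.52 (24 of 47 rose).

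Lists of genes that act with the ribosomal proteins, given in the next paragraphs, had smaller medians. Fau and Rack1 (listed as Gnb2l1) belong to the ribosome itself and lie outside the name rule. Fau is a ribosomal protein made as a ubiquitin-like fusion, and Rack1 is a scaffold on the 40S head. Fau stood at 221, 241 and 227 CPM in young and 256, 481 and 373 CPM in old hearts, with a log2 fold change of 0.69 ± 0.21 (edgeR adjusted p = 0.0536). Rack1 stood at 356, 350 and 348 CPM in young and 446, 517 and 451 CPM in old hearts, with a log2 fold change of 0.42 ± 0.13 (edgeR adjusted p = 0.0509). All old hearts were above all young hearts for both genes, and neither passed with edgeR. With DESeq2 both passed (adjusted p = 0.0136 for Fau and 0.0171 for Rack1), and with limma-voom Rack1 did (adjusted p = 0.0491) and Fau did not (adjusted p = 0.0692).

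Of 42 genes of ribosome biogenesis, which make and modify ribosomal RNA and assemble the subunits, 2 rose and none fell. The median was 0.16, and the shares called over all genes were 8.72% higher and 6.36% lower. Before adjustment 10 of the 42 were higher and 1 lower at p under 0.05 in edgeR. At an adjusted p under 0.05, DESeq2 called 3 higher and 0 lower. Nhp2, a protein of the RNA-guided pseudouridine synthase, rose from 22.4 ± 1.43 to 35.1 ± 3.45 CPM (SD, n = 3), and Nop56, of the RNA-guided methylase, from 30.2 ± 2.53 to 42.1 ± 3.84 CPM. Polr1b, a subunit of RNA polymerase I, had a log2 fold change of 0.53 ± 0.16 and did not pass (edgeR adjusted p = 0.0554). Of 16 other mRNAs with a TOP start, mainly translation factors, 2 rose and none fell, with a median of 0.20. These counts are near the shares called over all genes. Before adjustment 5 of the 16 were higher and 1 lower in edgeR, and DESeq2 called 2 and 1 at an adjusted p under 0.05. The 2 genes called higher by edgeR were Eef1d, a subunit of the elongation factor 1 exchange complex (0.79 ± 0.15, edgeR adjusted p = 0.012), and Tpt1, the translationally controlled tumour protein (0.58 ± 0.12, edgeR adjusted p = 0.0163). The values of called genes of both lists are given as those of single genes. Pabpc1, the poly(A)-binding protein, had a log2 fold change of −0.47 ± 0.15 (edgeR adjusted p = 0.0582).

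Among 22 regulators of TOP translation or of ribosomal protein genes, 2 rose and 1 fell, with a median of 0.02, which is near the shares of 8.72 and 6.36% called over all genes. Before adjustment 6 of the 22 were higher and 1 lower at p under 0.05 in edgeR. At an adjusted p under 0.05, DESeq2 called 3 higher and 1 lower. The values of the genes called by edgeR are given as those of single genes. Myc, a transcription factor of ribosome biogenesis genes, stood at 8.38, 4.27 and 5.86 CPM in young and 12.3, 19.6 and 19.1 CPM in old hearts. It rose by 1.46 ± 0.27 (edgeR adjusted p = 0.0101), with no overlap. Gabpb1, the partner of the Ets factor Gabpa, rose by 0.79 ± 0.20 (edgeR adjusted p = 0.0294). Eif4ebp2, a repressor of translation initiation that mTOR inactivates, stood at 9.07, 13.9 and 12.0 CPM in young and 5.76, 3.90 and 3.86 CPM in old hearts and fell by 1.37 ± 0.24 on the log2 scale (edgeR adjusted p = 0.00793). For the ribosomal stress route to p53, 4 of 5 listed genes were matched by the listed name. None of the 4 was called by edgeR, 1 was higher and none lower at an unadjusted p under 0.05, and DESeq2 called 1 higher. The other, Brix1, was listed under the older name Bxdc2 and tested among the biogenesis genes (0.24, edgeR adjusted p = 0.266). Mdm2 had a log2 fold change of 0.52 ± 0.17 (edgeR adjusted p = 0.0639), Rrs1 of −0.20 and Hexim1 of −0.31.

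The proteins of the mitochondrial ribosome, which are encoded by other nuclear genes, had a median of the opposite sign. Of 79 tested, none rose and 14 fell, with a median log2 fold change of −0.20, while 8.72% of all genes were called higher and 6.36% lower. Before adjustment 0 of the 79 were higher and 28 lower in edgeR, and DESeq2 called 0 and 14 at an adjusted p under 0.05. Mrpl4 fell from 100.3 ± 3.71 to 58.4 ± 5.81 CPM (SD, n = 3), Mrpl34 from 52.7 ± 2.94 to 30.3 ± 6.22 CPM and Mrpl44 from 46.3 ± 4.0 to 28.4 ± 4.32 CPM. The difference between the lists was not tested.

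**Figure D4:**
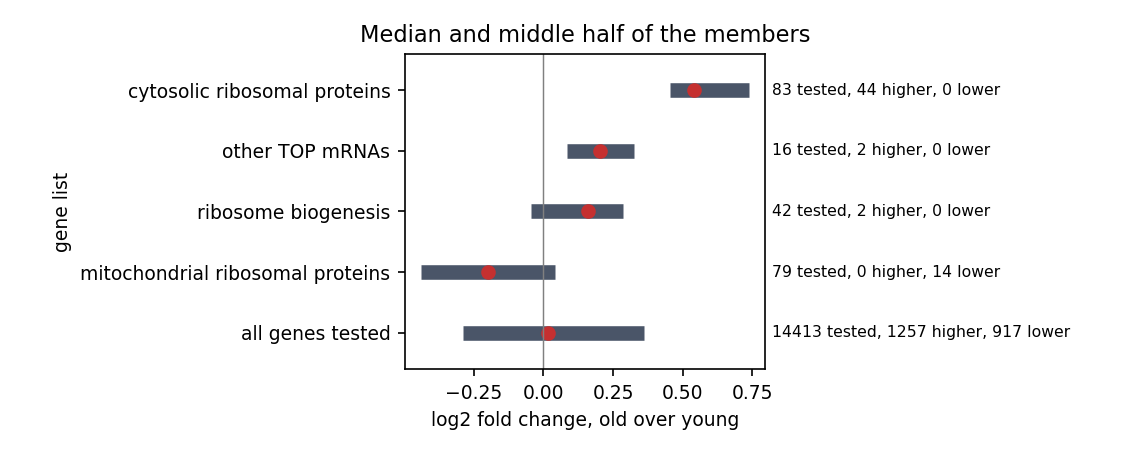
Median log2 fold change of old over young (red point, horizontal axis) and the range of the middle 50% of genes (bar) for each gene list (vertical axis), with the genes tested and called beside it. Cytosolic ribosomal proteins lie between 0.45 and 0.74 with a median of 0.54, and mitochondrial ribosomal proteins have a median of −0.20.

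Libraries held 13673856 to 15583364 counts. Heart muscle markers had very high levels in all of them, with Myh6 at 11629 to 24711 CPM and Tnnt2 at 7164 to 8610 CPM, which fits the labelled tissue. The summed level of 8 cardiomyocyte markers was 64039 to 70975 CPM in young and 52417 to 60620 CPM in old hearts, with 1 marker higher and 3 lower. That of 6 macrophage and monocyte markers was 267 to 324 CPM in young and 361 to 572 CPM in old hearts, with 1 higher (C1qa). The sum of 7 lymphocyte and plasma cell markers was 11.5 to 13.8 and 22.8 to 29.1 CPM. Of the 4 tested, 1 (Ptprc) was called higher, while 2 had a log2 fold change above 0 and 2 below 0. Cd3e had no count in 3 of the 6 libraries, and no change of lymphocytes is read from this list. The sum of 6 endothelial markers was 2283 to 2710 and 1991 to 2103 CPM, with 2 lower. The sums of the fibroblast and of the smooth muscle and pericyte lists overlapped between ages, with 1 marker lower in each and none higher. Erythroid, adipocyte and skeletal muscle markers had 1, 0 and 1 called lower and none higher. The erythroid sum was 928 to 981 CPM in young and 455, 467 and 1215 CPM in old hearts, so that old 3 was the highest of all. The part of these shifts in the rise of ribosomal protein mRNAs was not tested.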

How the data were processed

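RNA of 6 hearts was measured by sequencing. The deposited counts per gene were made by the authors with HISAT2, featureCounts and Subread on GRCm38.p6, per the submitters' processing notes; no source used here gives the versions, the annotation or how strand and multi-mapping reads were treated. The authors also deposited FPKM values, which hold 83 of the 86 members in 13170 rows. The 571 rows without a name (0.295 to 0.368% of counts) were left out of the tests.

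Groups followed the sample titles. In R 4.3.3, edgeR 4.0.16 (filterByExpr, TMM, quasi-likelihood F test, Benjamini-Hochberg at 0.05) was fitted on all named genes. CPM are scaled by TMM factors. The SE is approximate: the size of the log2 fold change over the square root of F. The method was tested on simulated counts with equal dispersion at both ages and changes larger than the median change of members. This does not cover smaller changes or the wider spread of old hearts. DESeq2 1.42.0, limma 3.58.1 (voom, and trend on log2 FPKM with pseudocounts of 1 and 0.1), other scalings and filters, a length trend, the replicate block and each library left out were alternatives; summing copies was added after seeing the data. Counts carry counting error beside the spread between hearts, and totals of 13673856 to 15583364 limit genes with few reads.

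The members and lists were chosen with earlier results of these data known. Named members are the 8 largest and 4 smallest log2 fold changes at a mean CPM of at least 1, 22 with a fixed role, 5 restricted copies or non-ribosomal names, and the 3 smallest p values of each list; Rps2, Rpl24, Rpl34, Rps12l2, the members of copy pairs and Rpl36 were named after their values were seen. Some items are not reported here by name. Gene positions, biotypes and transcripts came from GENCODE M21, and starts from RefSeq. The labels do not say that equal replicate numbers pair the hearts. Deviations from the group means correlated by −0.09, −0.07 and 0.03 for equal numbers, and by −0.10 to 0.15 for unequal numbers. With 3 hearts per age this cannot show whether equal numbers were processed together.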

Additional observations from a re-analysis of the deposited data

How the results depend on the processing

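No result changed direction among the counts of members, their median and their share of counts. Members called higher numbered 44, and 30 to 57 under other scalings, filters and tools. With the replicate block, which the labels do not support as a pairing, 30 were higher and 1 lower, and with the length trend removed and the replicate block 23 and 1. Leaving out 1 library gave 5 to 65 higher and 0 to 3 lower (3 without old 1: Rpl7a, Rpl15 and Rpl23a). Members called lower numbered 1, Rpl7a, with no filter on low counts, with DESeq2, under the replicate block, and once the length trend was removed, alone or with the block. The median log2 fold change lay between 0.50 and 0.54 under other settings and between 0.43 and 0.62 without 1 library. The members' share of counts was higher in old hearts by 0.996 percentage points, and by 0.741 to 1.14 without 1 library. Of the 44 called members 4 kept their call in every setting. The cause of these changes was not tested. With 3 hearts per age and a spread in old hearts above that in young hearts, differences near 0.5 on the log2 scale lie close to the threshold.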
